A study of Mus musculus with 20 samples.

Results

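Transcripts of the chemokine gene Cxcl2 and of the colony-stimulating factor genes Csf3 and Csf2 were followed in mouse ileal mucosa by real-time PCR. All assays of an inflammation panel that carry one of these symbols were taken: 5 of 648 assays, for 3 of 584 gene symbols, with 1 assay for Cxcl2, 2 for Csf3 and 2 for Csf2. The 20 samples formed 4 groups of 5. CEC samples came from mice given DNBS (dinitrobenzene sulfonic acid, which serves to induce colitis in rodents) into the rectum, with an oral treatment that the labels call CEC and do not spell out. Nissle samples came from mice given intrarectal DNBS and oral Nissle, the name of a probiotic Escherichia coli strain. DNBS samples came from mice given intrarectal DNBS and oral phosphate-buffered saline (PBS), and healthy samples from mice given PBS by both routes. The CEC, Nissle and DNBS groups thus share the hapten, which was placed in the rectum while the tissue measured was ileum. The strain, age and sex of the mice are not given in the sources used here. The submitters mention that RNA of mice was pooled and do not say whether a sample stands for 1 mouse, and the spread behind every p-value is therefore that between samples and may be technical. For Nissle 3, 4 and 5, 1 label names the healthy controls while the others name Nissle. They are treated as Nissle here, and the level differences of Cxcl2 and Csf2 and the detection of Csf3 in Nissle samples are also given without them.

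Cxcl2 encodes a secreted chemokine that binds the receptor CXCR2 on neutrophils and draws them out of the blood into tissue. Csf3 encodes G-CSF, the growth factor that drives neutrophil production and release from bone marrow. Csf2 encodes GM-CSF, which acts on neutrophils, macrophages and dendritic cells. In the gut, epithelial, stromal and myeloid cells can make Cxcl2 and Csf3 in response to interleukin-1, interleukin-17 and bacterial products, and T cells and innate lymphoid cells are among the sources of Csf2.

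The cycle threshold (Ct) counts the PCR cycles until the fluorescence passes a set mark, so a lower Ct means more template, and a value of 40 marks an assay that did not amplify (undetermined). Between 570 and 594 assays amplified in a sample. The mean Ct of the 544 assays that amplified in every sample was 22.6 to 24.3 cycles. The relative level used below is that mean minus the Ct of the assay in the same sample, which is on a log2 scale under the assumption that product doubles in every cycle. Among small-intestinal epithelial transcripts, both assays of Apoa1 and the assay of Ccl25 amplified in all 20 samples, with a mean relative level of 5.11 to 7.95 per sample. In bulk tissue, fewer cells of a type and less RNA per cell cannot be told apart.

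Cxcl2, the ligand, was highest on average in the DNBS samples and lowest in the healthy ones. The gene lies on chromosome 5, where RefSeq places Cxcl3, Cxcl15 and Cxcl1 directly before it. The 150 bases before its RefSeq start (GRCm38.p6, chr5:90903749-90903898, plus strand) are shown because they are the stretch of gene sequence nearest to where its transcription is controlled. Capitals mark 2 overlapping matches, 1 on each strand, to the NF-kB motif GGGANNTTCC:
Cxcl2: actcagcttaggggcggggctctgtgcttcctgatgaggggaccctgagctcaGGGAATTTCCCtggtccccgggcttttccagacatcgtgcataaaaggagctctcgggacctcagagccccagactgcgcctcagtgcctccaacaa
That motif, searched on both strands of the 250 bases before the start, occurs in 397 of 32851 RefSeq promoters (1.21%). The AP-1 motif TGANTCA (6.75% of promoters) and the TATA box TATAAA (12.4%) had no match in that window of Cxcl2. The same search before the RefSeq start of Csf2 gave no match to the NF-kB, AP-1 or TATA motif. Whether that start of Csf2 is the one in use in ileum was not checked. A match is a description of letters, and binding was not measured.

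The Cxcl2 assay amplified in all 20 samples. In the CEC samples its relative level was -0.85, -1.10, -4.98, -4.07 and -4.97 in CEC 1, 3, 5, 7 and 8. In the Nissle samples it was 2.77, -2.74, -2.30, -6.36 and -5.62 in Nissle 1 to 5. CEC and Nissle samples were each spread over several cycles, and both overlapped the DNBS and the healthy samples. CEC 1 and 3 and Nissle 2 and 3 lay within the range of the DNBS values, and CEC 5 and 8 and Nissle 4 and 5 within that of the healthy ones. In the DNBS samples it was -1.93, -0.03, -2.18, -2.88 and -1.19 in DNBS 1 to 5. In the healthy samples it was -7.26, -6.45, -4.44, -6.19 and -7.75 in healthy 1b, 3, 4, 5 and 6. Every DNBS sample lay above every healthy sample. Nissle 1 was the highest of the 20 samples at a Ct of 19.8, and healthy 6 the lowest at a Ct of 31.4, a span of 10.52 on the log2 scale or about 1472-fold.

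**Figure D1:**
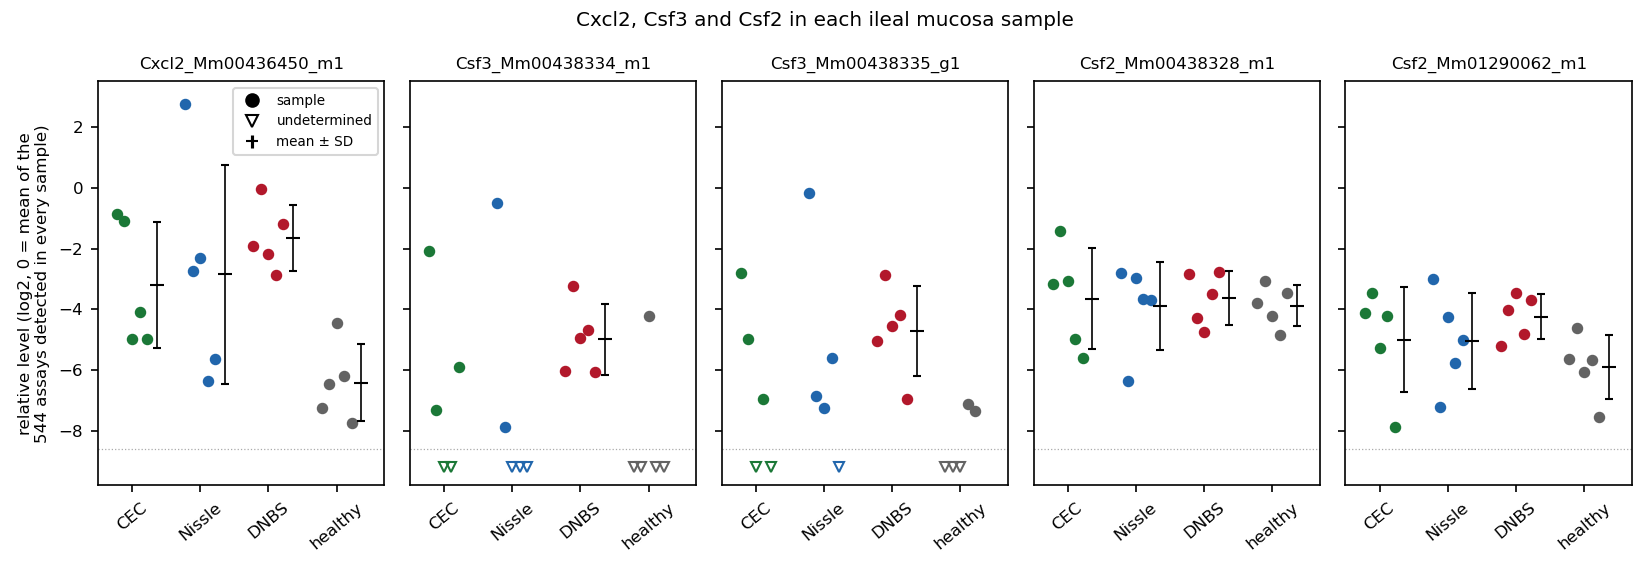
Relative level (log2, y axis) of each of the 5 assays in each sample, by group. Filled points are samples, open triangles under the dotted line are undetermined samples, and bars show mean ± SD where all 5 samples of a group amplified. The 5 DNBS samples lie above the 5 healthy samples for Cxcl2, Csf3 amplified in all DNBS samples in both assays, and the groups overlap for Csf2.

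In DNBS samples Cxcl2 averaged -1.64 ± 1.08 and in healthy samples -6.42 ± 1.27 (SD, n = 5 each). The difference was 4.78 on the log2 scale (SE 1.27, 95% confidence interval 2.12 to 7.43), or 27.4-fold. With limma over the 569 assays that had at least 3 values in each group, the unadjusted p was 0.00121 and the adjusted p 0.122, so Cxcl2 did not pass the threshold of 0.05. It had the 5th smallest p of the 569 assays and the 2nd largest difference upward. In this comparison 1 assay was called (0.176%), and 83 had an unadjusted p below 0.05. The DNBS and healthy samples did not overlap for Cxcl2, and DNBS lay wholly above healthy for 13 of 569 assays (2.28%). The exact permutation test on ranks, two-sided, gave p = 0.00794 and an adjusted p of 0.163 over 618 assays. This p is the smallest that 252 splits of 5 against 5 allow. An adjusted p below 0.05 would need many more assays at that smallest p than were found. The estimate depended on the model. Fitted on the DNBS and healthy samples alone it was again 4.78, with an adjusted p of 0.00327. With the sample number as a replicate block over all 4 groups it was 2.99, with an adjusted p of 0.514.

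In CEC samples Cxcl2 averaged -3.20 ± 2.06 (SD, n = 5), which was 3.22 above the healthy mean (95% confidence interval 0.57 to 5.88, 9.34-fold), with an adjusted p of 0.803 by limma. Of the 5 CEC samples, 3 lay above all healthy samples. In Nissle samples it averaged -2.85 ± 3.60 (SD, n = 5), which was 3.57 above the healthy mean (95% confidence interval 0.92 to 6.22, 11.9-fold), with an adjusted p of 0.488. Here too 3 of 5 samples lay above all healthy samples, and the difference was 2.17 without Nissle 1 and 6.44 without Nissle 3, 4 and 5. Neither CEC nor Nissle was separated from healthy in full, while CEC lay wholly above healthy for 2 of 569 assays (0.351%) and Nissle for 3 of 569 (0.527%). Cxcl2 was the assay with the 2nd largest difference upward in both comparisons, and 1 of 569 assays was called in each (0.176%). The CEC, Nissle and DNBS comparisons share the same 5 healthy samples.

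Between the groups that received DNBS, none of the differences in Cxcl2 passed the test. CEC was 1.56 below DNBS, with a 95% confidence interval of -4.21 to 1.10 for CEC minus DNBS and an adjusted p of 0.634 by limma. Nissle was 1.21 below DNBS, with a 95% confidence interval of -3.86 to 1.45 for Nissle minus DNBS and an adjusted p of 0.853. CEC was 0.35 below Nissle, with a 95% confidence interval of -3.0 to 2.31 for CEC minus Nissle and an adjusted p of 0.998. The intervals reach several cycles to either side of 0, so these samples do not show that the groups had the same level. No assay was called in any of these 3 comparisons (0%), with 61, 24 and 8 assays at an unadjusted p below 0.05. Of the CEC samples 3 of 5 lay below all DNBS samples, and of the Nissle samples 2 of 5 did, while Nissle 1 lay above all of them. Without Nissle 1, Nissle minus DNBS was -2.61, and without Nissle 3, 4 and 5, whose labels disagree, it turned to 1.66. Without Nissle 3, 4 and 5, CEC minus Nissle was -3.21, with an adjusted p of 0.613.

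**Figure D2:**
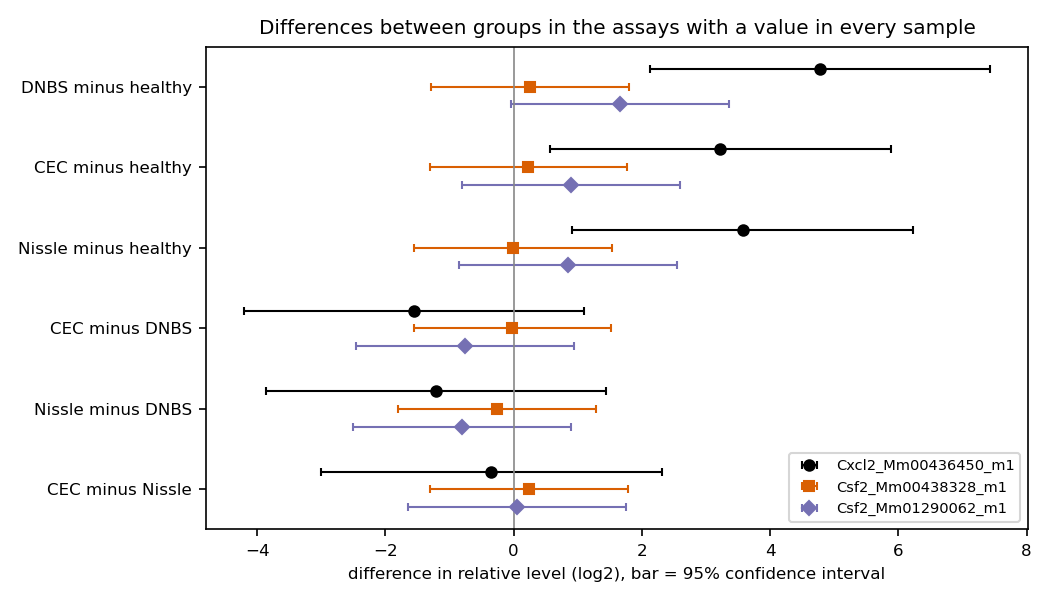
Difference in relative level (log2, x axis) between groups for the 3 assays of Cxcl2 and Csf2 that amplified in every sample. Points are limma estimates and bars are 95% confidence intervals. For Cxcl2 the intervals of the comparisons with healthy samples lie above 0, and the Csf2 intervals all include 0.

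Csf3, which encodes the neutrophil growth factor G-CSF, amplified in only part of the samples by either assay. The DNBS group was the one group in which both of its assays amplified in all 5 samples. Where Csf3 amplified, its Ct was 23.1 to 30.7 by Csf3_Mm00438334_m1 and 22.8 to 31.2 by Csf3_Mm00438335_g1. The assay Csf3_Mm00438334_m1, whose suffix marks a probe across an exon junction, amplified in 3 of 5 CEC, 2 of 5 Nissle, 5 of 5 DNBS and 1 of 5 healthy samples. The assay Csf3_Mm00438335_g1, whose suffix marks that genomic DNA may also be amplified, did so in 3 of 5 CEC, 4 of 5 Nissle, 5 of 5 DNBS and 2 of 5 healthy samples. Both assays amplified in 2 CEC, 2 Nissle, 5 DNBS and 0 healthy samples. A single assay amplified in 2 CEC, 2 Nissle and 3 healthy samples, and no healthy sample amplified in both. Without Nissle 3, 4 and 5, both assays amplified in the 2 Nissle samples left.

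By Csf3_Mm00438334_m1, detection in DNBS against healthy samples gave p = 0.0476 in Fisher's exact test, two-sided, with an adjusted p of 1.0 over 77 partly detected assays. By Csf3_Mm00438335_g1 Fisher's exact test gave p = 0.167 and an adjusted p of 1.0. No assay was called in detection in any of the 6 comparisons (0%), with 1 to 3 assays at an unadjusted p below 0.05. So few assays could not reach an adjusted p below 0.05 over 77 tests, even at the smallest p that 5 against 5 allows. The 0% and the adjusted p-values are therefore no sign that detection was equal. Detection in CEC and in Nissle samples did not pass against either healthy or DNBS samples, with the smallest unadjusted p at 0.167 for Nissle against DNBS by Csf3_Mm00438334_m1.

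Where Csf3 amplified, its level also differed between samples. By Csf3_Mm00438335_g1 the relative level was -2.81, -4.98 and -6.95 in CEC 1, 3 and 7, and -0.18, -6.85, -7.26 and -5.61 in Nissle 1 to 4. It was -5.03, -2.89, -4.54, -4.19 and -6.94 in DNBS 1 to 5, and -7.13 and -7.35 in healthy 5 and 6. All DNBS samples were thus above the healthy samples that amplified, and Nissle 1 was above all other samples. By Csf3_Mm00438334_m1 it was -2.08, -7.33 and -5.91 in CEC 1, 3 and 8, and -0.49 and -7.89 in Nissle 1 and 2. It was -6.03, -3.24, -4.96, -4.67 and -6.05 in DNBS 1 to 5, and -4.21 in healthy 4. That single healthy value was higher than 4 of the 5 DNBS values, and the other Csf3 assay did not amplify in the same sample.

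With undetermined samples ranked lowest, the 2 assays gave different p-values in the exact permutation test of DNBS against healthy samples, two-sided. Csf3_Mm00438335_g1 separated the groups in full (exact p = 0.00794, adjusted p = 0.163 over 618 assays), and Csf3_Mm00438334_m1 did not (exact p = 0.0714, adjusted p = 0.450). No assay was called by ranks in any of the 6 comparisons (0%), with 12 to 74 assays at an unadjusted p below 0.05. Since 0.00794 is the smallest p possible, 74 or fewer such assays could not bring an adjusted p below 0.05. The 0% therefore does not bear on Csf3. Among the other comparisons the smallest rank p of Csf3 was 0.103, for Nissle against healthy samples by Csf3_Mm00438335_g1. Csf3 had too few healthy values for the fit of levels. Over the 9 samples in which both assays amplified, their levels followed each other (Pearson's r = 0.92, Spearman's rho = 0.92, exact permutation p = 0.000389 and 0.00131), with r = 0.80 when the 2 samples farthest from the median, Nissle 1 and Nissle 2, were left out.

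Csf2, which encodes GM-CSF, amplified in all 20 samples by both assays, and its group means lay closer together than those of Cxcl2. By Csf2_Mm01290062_m1 the relative level was -4.13, -3.47, -5.28, -4.23 and -7.89 in CEC 1, 3, 5, 7 and 8, and -3.02, -7.22, -4.25, -5.76 and -5.02 in Nissle 1 to 5. It was -5.20, -4.02, -3.48, -4.81 and -3.71 in DNBS 1 to 5, and -5.64, -4.61, -6.05, -5.67 and -7.53 in healthy 1b, 3, 4, 5 and 6. Of the DNBS samples, 3 of 5 lay above all healthy samples, and the lowest CEC sample lay below all healthy samples. DNBS averaged -4.24 ± 0.74 and healthy -5.90 ± 1.06 (SD, n = 5 each). The difference was 1.66 (SE 0.82, 95% confidence interval -0.04 to 3.36, 3.15-fold), with an adjusted p of 0.372 by limma. The exact permutation test on ranks gave p = 0.0318 and an adjusted p of 0.265.

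By Csf2_Mm00438328_m1 no 2 groups were separated. Its relative level was -3.16, -1.42, -3.07, -4.98 and -5.61 in CEC 1, 3, 5, 7 and 8, and -2.81, -6.36, -2.95, -3.66 and -3.69 in Nissle 1 to 5. It was -2.83, -4.29, -4.76, -3.50 and -2.76 in DNBS 1 to 5, and -3.78, -3.07, -4.22, -4.84 and -3.48 in healthy 1b, 3, 4, 5 and 6. The highest sample was CEC 3 and the lowest Nissle 2. Of the CEC samples 2 lay above and 2 below all healthy samples, of the Nissle samples 2 above and 1 below, and of the DNBS samples 2 above. DNBS minus healthy was 0.25 (95% confidence interval -1.29 to 1.79, adjusted p = 0.919 by limma). The 2 Csf2 assays thus gave differences of 1.66 and 0.25 for the same samples, and the difference between them was not tested.

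No difference in Csf2 between orally treated and DNBS samples passed the test. By Csf2_Mm01290062_m1, CEC minus DNBS was -0.76 (95% confidence interval -2.46 to 0.94) and Nissle minus DNBS -0.81 (95% confidence interval -2.51 to 0.89), with adjusted p-values of 0.712 and 0.853 by limma. These rested in part on single samples: CEC minus DNBS was -0.03 without CEC 8 and -1.14 without CEC 3, and Nissle minus DNBS was -0.27 without Nissle 2 and -1.32 without Nissle 1. By Csf2_Mm00438328_m1 the same differences were -0.02 (95% confidence interval -1.56 to 1.52) and -0.26 (95% confidence interval -1.81 to 1.28), with adjusted p-values of 0.994 and 0.919. Against healthy samples, CEC and Nissle were higher by 0.90 and 0.85 in Csf2_Mm01290062_m1, and the differences in Csf2_Mm00438328_m1 were 0.23 and -0.01. CEC minus Nissle was 0.05 and 0.25 in the 2 assays, with adjusted p-values of 0.998 each. Without Nissle 3, 4 and 5, Csf2_Mm01290062_m1 gave 0.78 for Nissle minus healthy, -0.88 for Nissle minus DNBS and 0.12 for CEC minus Nissle. Csf2_Mm00438328_m1 then gave -0.70, -0.95 and 0.93 for the same comparisons, and none of these passed the test. Il3, the growth factor gene that RefSeq places directly after Csf2 on chromosome 11, was undetermined in all 20 samples.

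Pairs of the 5 assays were correlated over the samples in which both amplified, 10 pairs in all, with permutation p-values adjusted over the pairs. Differences between the correlations were not tested. The permutations, here and for the 2 Csf3 assays above, shuffled samples across the groups. Differences between groups therefore enter these p-values, and the correlations within groups were not tested. Cxcl2 and Csf3_Mm00438335_g1 gave r = 0.74 and rho = 0.73 over 14 samples (permutation p = 0.00238 and 0.0039, adjusted 0.00793 and 0.013), and r = 0.52 without the 2 samples farthest from the median of Cxcl2. Cxcl2 and Csf2_Mm01290062_m1 gave r = 0.66 and rho = 0.72 over 20 samples (permutation p = 0.00147 and 0.00052, adjusted 0.00735 and 0.0052), and r = 0.51 without 2 such samples. Within groups, as deviations from the group means, r was 0.69 and 0.56. Cxcl2 and Csf2_Mm00438328_m1 gave r = 0.25 and rho = 0.32 (permutation p = 0.277 and 0.171, adjusted 0.346 and 0.285), which did not pass, with r = 0.28 within groups. For Cxcl2 and Csf3_Mm00438334_m1, r = 0.58 over 11 samples (rho = 0.38, permutation p = 0.0597 and 0.25, adjusted 0.0994 and 0.358) came down to 0.23 without Nissle 1, and was 0.69 within groups. The 2 Csf2 assays gave r = 0.55 and rho = 0.49 over 20 samples (permutation p = 0.0115 and 0.0287, adjusted 0.0288 and 0.0575), and r = 0.37 without the 2 farthest samples. Csf3_Mm00438334_m1 gave r = 0.21 with Csf2_Mm00438328_m1 and 0.46 with Csf2_Mm01290062_m1 over 11 samples (adjusted permutation p = 0.538 and 0.221). Csf3_Mm00438335_g1 gave r = 0.28 and 0.56 with the same assays over 14 samples (adjusted permutation p = 0.364 and 0.0742). None of these Csf3 and Csf2 pairs passed. The samples share their normalization, and Nissle 1 was the highest sample for Cxcl2, for both Csf3 assays and for Csf2_Mm01290062_m1.

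**Figure D3:**
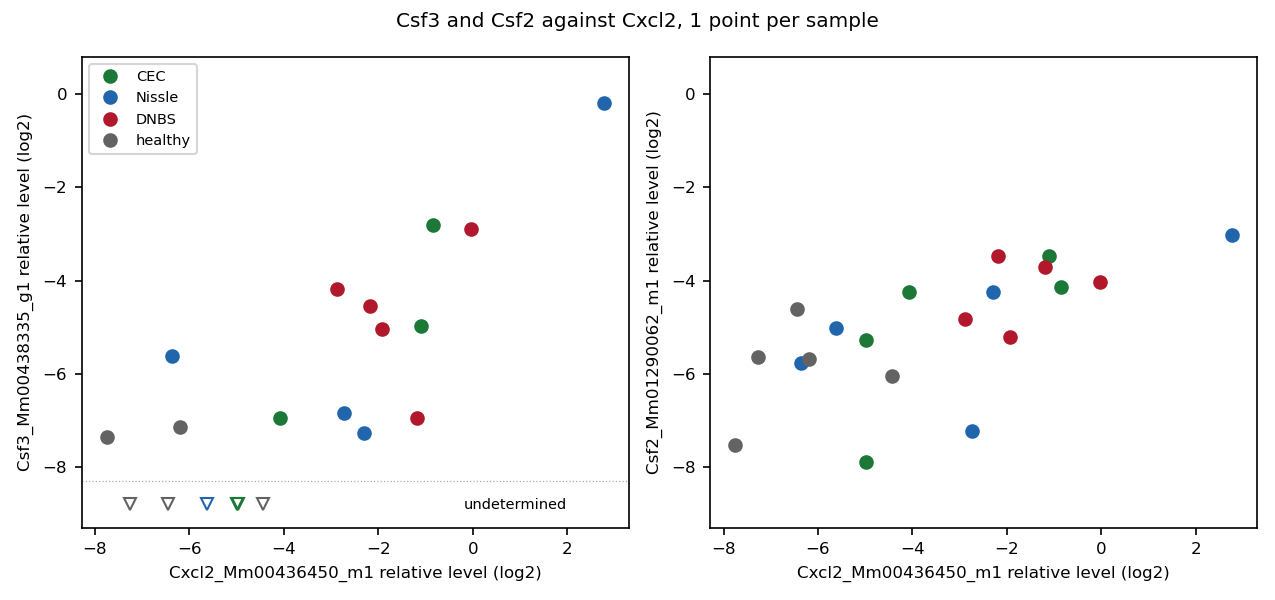
Relative level (log2) of Csf3_Mm00438335_g1 (left) and Csf2_Mm01290062_m1 (right) against that of Cxcl2, 1 point per sample, coloured by group. Open triangles are samples in which Csf3 was undetermined, of which 2 CEC samples coincide near a Cxcl2 level of -4.98. In this assay Csf3 was undetermined only in samples with a Cxcl2 level of -4.44 or lower, and Nissle 1 stands at the top right of both panels.

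The assays most like Cxcl2 across samples, among 570 with at least 15 shared values, were ranked by Pearson's r as a description. They were Il6_Mm01210732_g1 for the cytokine interleukin-6 (r = 0.86, 15 samples), Cxcl1_Mm00433859_m1 for the neighbouring CXCR2 ligand (r = 0.84, 20 samples) and Sele for E-selectin, which slows leukocytes on endothelium (r = 0.83, 15 samples). Ccl2, a chemokine for monocytes, followed with r = 0.83 and the calprotectin subunit S100a8 by S100a8_Mm00496696_g1 with r = 0.82, over 20 samples each. Without Nissle 1 these r values were 0.79, 0.77, 0.74, 0.75 and 0.76. Csf2_Mm01290062_m1 was most like Sele (r = 0.70), Ptx3 (0.67), Cxcl2 (0.66), Il22 (0.66) and Chi3l3 (0.64), over 15, 17, 20, 20 and 20 samples. Csf2_Mm00438328_m1 had no assay with an r above 0.58, which was that of the chemokine gene Ccl17 over 20 samples, followed by the other Csf2 assay (0.55), Ifng (0.49), Il6_Mm01210732_g1 (0.41, 15 samples) and Pla2g7 (0.40). The Csf3 assays had too few values for this ranking.

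Most of the CXCR2 ligand assays on the panel were higher on average in DNBS than in healthy samples, and none of them passed the test. Counted with Cxcl2, 5 of 6 ligand assays were higher in DNBS samples, 0 of 6 were called by limma and 4 had an unadjusted p below 0.05. Their median difference was 2.31, against -0.07 over all 569 assays, of which 44.6% were higher. Cxcl3 was higher by 2.69 (SE 1.28, adjusted p = 0.331 by limma), and the 2 assays of Cxcl1 by 2.15 (SE 0.78) and 2.47 (SE 0.89), with an adjusted p of 0.158 each. The platelet chemokine gene Ppbp, named after its value was seen, was the lower one at -0.45. In CEC against healthy samples 5 of 6 were higher with a median of 0.79, and in Nissle against healthy samples 6 of 6 with a median of 1.74. In CEC against DNBS samples 5 of 6 were lower with a median of -1.31, against -0.02 over all assays, and 0 of 6 had an unadjusted p below 0.05.

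No other haematopoietic growth factor on the panel passed the test between DNBS and healthy samples. Csf1, the macrophage growth factor gene, differed by 0.24 in DNBS minus healthy samples, Kitl for stem cell factor by -0.15 and Flt3l for FLT3 ligand by -0.68, with adjusted p-values of 0.806, 0.919 and 0.471 by limma. Il5, the eosinophil growth factor gene, amplified in 1 of 20 samples. Among the receptors, Il8rb, the panel's name for the CXCR2 gene, was higher by 2.45 in DNBS than in healthy samples (SE 1.19, adjusted p = 0.355 by limma). Csf2rb and Csf2ra, which encode the chains of the GM-CSF receptor, differed by 0.63 and 0.34, and Il8ra, the CXCR1 gene, by -0.51. The Il8ra assay has the suffix s1, and the median difference over all 53 s1 assays was -0.65 in this comparison. Over 458 assays with the suffix m1 it was -0.01. The cause of this shift was not tested. None of the 4 receptor assays was called in any comparison.

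Cytokine genes that can induce Cxcl2 and Csf3 were mostly higher in DNBS than in healthy samples, and again none passed. Of 9 assays tested, with 2 each for Il6 and Il1b, 8 were higher, with a median of 1.71. By limma 0 were called and 3 had an unadjusted p below 0.05. Il6_Mm00446190_m1 was higher by 4.62 (SE 1.22, adjusted p = 0.122) and Il22 by 3.65 (SE 1.33, adjusted p = 0.158). The 2 Il1b assays were higher by 1.81 and 1.71, with adjusted p-values of 0.298 and 0.483 by limma. The other Il6 assay tested, Il6_Mm01210733_m1, named after its value was seen, went the opposite way in level at -4.06 (SE 3.75). It amplified in 5 of 5 DNBS and 3 of 5 healthy samples. Its level difference thus rests on 3 healthy values, and its detection was higher in DNBS samples. Il6_Mm01210732_g1, also named here after its values were seen, amplified in 5 of 5 DNBS and 2 of 5 healthy samples. It had too few healthy values for the fit of levels. The interleukin-17 genes were also named after their values were seen. Il17a was higher by 0.49 and Il17f by 1.69, with adjusted p-values of 0.850 and 0.521 by limma. Il17f amplified in 3 of 5 DNBS and 5 of 5 healthy samples, so its detection went the other way. The Tnf assay was undetermined in all 20 samples. In CEC against DNBS samples all 9 of 9 assays were lower, with a median of -0.99, against -0.02 over all 569 assays, of which 48.0% were higher. By limma 0 of the 9 were called, and 2 had an unadjusted p below 0.05, as had 61 of all 569. In Nissle against DNBS samples 4 of 9 were higher and 5 of 9 lower.

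**Figure D4:**
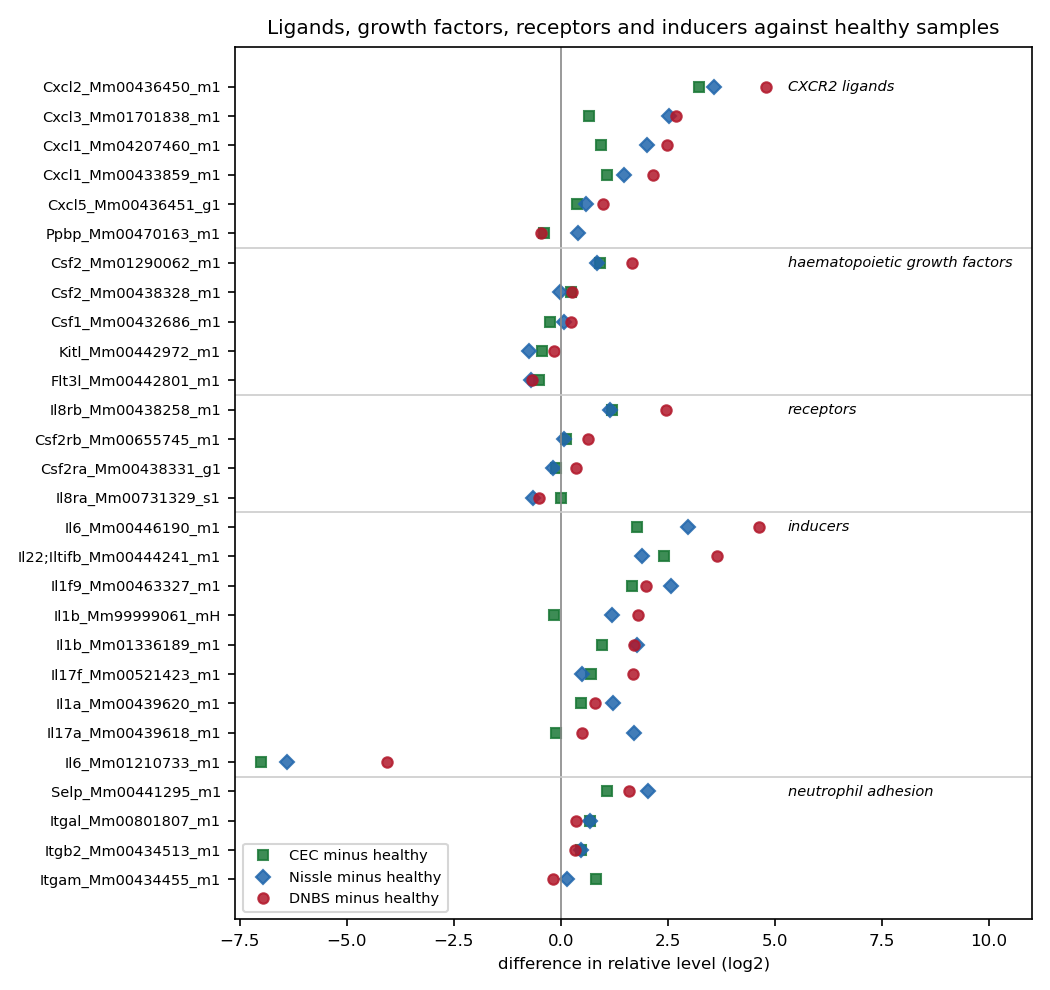
Difference in relative level from healthy samples (log2, x axis) for CXCR2 ligands, haematopoietic growth factors, receptors, inducing cytokines and adhesion genes. Squares are CEC, diamonds Nissle and circles DNBS, each minus healthy, as limma estimates without error bars. Cxcl2 stands furthest to the right among the ligands in each of the 3 comparisons.

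Among the genes of neutrophil adhesion, Selp for P-selectin was higher by 1.59 in DNBS than in healthy samples (SE 0.59, adjusted p = 0.158 by limma), and 3 of 4 assays tested were higher with a median of 0.33. Sele amplified in 5 CEC, 3 Nissle, 5 DNBS and 2 healthy samples. Several markers of neutrophils themselves were also higher. All 8 of 8 neutrophil marker assays with enough values were higher in DNBS than in healthy samples (7 of 8 with median normalization). The median difference was 2.14, 0 were called by limma and 4 had an unadjusted p below 0.05. These 4 were both S100a8 assays (4.42 and 3.83), S100a9 (3.96) and Ltf (1.83). Il8rb, given with the receptors, was counted here too. Ncf1, Camp and Fpr1 differed by only 0.19 (SE 0.29), 0.14 (SE 0.83) and 0.09 (SE 0.58). These genes were picked out with their differences already known. The rise was thus not uniform over the markers. The mean relative level of the 8 assays was -2.82 to 0.45 in CEC and -2.43 to 2.66 in Nissle samples. It was -2.25 to 0.79 in DNBS and -3.29 to -1.71 in healthy samples. Nissle 1, the sample with the most Cxcl2, was the highest at 2.66, and the next Nissle sample was at -1.32. The granule protease gene Prtn3 amplified in 1 CEC, 2 Nissle, 3 DNBS and 0 healthy samples. Epithelial marker assays, 2 of Apoa1 and 1 of Ccl25, were lower in DNBS than in healthy samples in 3 of 3 cases (2 of 3 with quantile normalization). They were higher in 3 of 3 in both CEC and Nissle than in DNBS samples (medians 1.16 and 0.62). In these comparisons 0 were called by limma. An unadjusted p below 0.05 was found for 1 in DNBS minus healthy, 3 in CEC minus DNBS and 0 in Nissle minus DNBS. Of the other marker assays in DNBS against healthy samples, 4 of 5 for macrophages and monocytes were higher (median 0.61), 2 of 2 for T cells lower (median -0.58), 1 of 1 for B cells lower (-0.62) and 3 of 4 for eosinophils and mast cells lower (median -0.48), with 0 called by limma and 1, 1, 0 and 2 at an unadjusted p below 0.05. The endothelial marker was Selp, given above. Among the marker assays, those of Fpr1 and Cx3cr1 and 1 of the 2 for Ccr3 have the suffix s1, whose median difference is given with Il8ra. The part of these cell markers in the differences of Cxcl2, Csf3 and Csf2 was not tested.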

How the data were processed

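The deposited file holds raw cycle thresholds (Ct, not normalized, per the file headers), and no other value of the authors was used. RNA extraction used a mirVana kit and PCR ran on OpenArray plates, per the labels' protocols. A Ct of 40 filled 1273 of 12960 cells (9.82%), 1 cell was empty, and both were left missing. Of the determined values, 0.282% lay above 32 cycles. No replicate pair held identical values.

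Relative levels were compared in 6 pairs of groups with limma 3.58.1 (R 4.3.3, 4 group means over 20 samples, trended empirical Bayes, two-sided) over 569 assays with at least 3 values in each group. Ranks used an exact permutation test and detection Fisher's exact test (Python 3.11.15, scipy 1.17.1). P-values were adjusted by Benjamini-Hochberg within each comparison at 0.05. The fits and tests were checked on simulated data.

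The members and lists were chosen with earlier results of these data known. The text names every member assay, the 5 assays most like each, and up to 4 members of each list with the smallest p, with others marked as named after their values were seen. Lists came from textbook function: CXCR2 ligands, haematopoietic growth factors, receptors, inducers, neutrophil adhesion and cell markers.

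The titles number the samples without saying what a number marks. DNBS and healthy samples share the numbers 3, 4 and 5, and the deviations of same-numbered samples from their group means gave r = 0.18, 0.14 and 0.49. In Nissle and healthy samples the same numbers gave r = -0.16, -0.40 and -0.15. CEC and healthy samples share the numbers 3 and 5, which gave r = 0.13 and 0.11. The pairs of groups without healthy samples gave mixed signs. DNBS 4 correlated better with another healthy sample than with healthy 4. A pairing is thus not established for any of the groups. The fit with the number as a replicate block takes in all 20 samples, Nissle included, and is given beside DNBS minus healthy as an alternative. Promoter sequence is RefSeq's (GRCm38.p6), found for 2 of the 3 genes, Cxcl2 and Csf2, and both were searched. Assay coordinates were not used here.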

Additional observations from a re-analysis of the deposited data

Results flagged for a closer look

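Of 15 groups with 4 or 5 amplified values, 1 held a value that stood apart from its own group by Dixon's criterion. Csf2_Mm00438328_m1 was at -6.36 in Nissle 2, and the nearest Nissle sample was at -3.69, a gap of 0.752 of the group's range against a critical value of 0.71. Chance flags about 1 in 20 such groups. The other Csf2 assay was also lowest of the Nissle samples in Nissle 2, at -7.22.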

How the results depend on the processing

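Of the log2 differences of the 3 assays in the fit, 572 under all settings tried kept their direction and side of the threshold, 37 turned and 3 came past the threshold. The 3 were all Cxcl2 in DNBS minus healthy: 4.778 with both groups alone (adjusted p = 0.00327), 4.235 with array weights (adjusted p = 0.00666) and 4.778 without Nissle 1 (adjusted p = 0.0119), the first and last of which use fewer samples. Leaving out 1 sample at a time, it ranged from 4.376 to 5.274. With the replicate block it was 2.987, and the block changed no call. Undetermined values set to 40 cycles gave Csf3 8.88 and 8.11 in DNBS minus healthy, with an adjusted p of 0.188 each by limma. The size of both depends on the value of 40, since only 0.282% of determined values lay above 32 cycles. From amplified values alone, with 2 healthy samples, Csf3_Mm00438335_g1 gave 2.53 (SE 1.63, adjusted p = 0.527 by limma). Csf3_Mm00438334_m1 had 1 healthy value, which was above the DNBS mean. The 37 differences that turned sign did so in comparisons that passed no test, and the cause was not tested. For Cxcl2 these were 1.658 in Nissle minus DNBS without Nissle 3, 4 and 5, and 0.3201 in CEC minus Nissle with the replicate block (-1.224 to 1.059 leaving out 1 sample). For Csf2_Mm01290062_m1 they were -0.0232 in CEC minus healthy with array weights, and in CEC minus Nissle -0.1151 with reference assays, -0.3433 without normalization and -0.8602 with array weights (-0.4879 to 0.7757 leaving out 1 sample). For Csf2_Mm00438328_m1 they were -0.5125 in CEC minus healthy with array weights (-0.3259 to 0.722 leaving out 1 sample). In Nissle minus healthy they were 0.06015 with reference assays, 0.4245 without normalization, 0.06147 with quantile normalization and 0.4778 with the replicate block (-0.2865 to 0.6013). In CEC minus DNBS they were 0.1271 with median normalization and 0.6142 with the replicate block (-0.5758 to 0.4721), in Nissle minus DNBS -0.5486 to 0.3513, and in CEC minus Nissle -0.1518 without normalization and -0.4099 with array weights (-0.3704 to 0.7366). Rank differences without Nissle 3, 4 and 5, an alternative added after seeing the data, turned to 0.7 for Cxcl2 and for Csf3_Mm00438335_g1 in Nissle minus DNBS. In CEC minus Nissle they turned to -2.1 for Cxcl2, -1.4 for Csf3_Mm00438334_m1 and -0.7 for Csf2_Mm01290062_m1, and detection of Csf3_Mm00438334_m1 to -40 percentage points. Raw Ct ranks gave -0.2 for Csf2_Mm00438328_m1 and -0.6 for Csf2_Mm01290062_m1 in CEC minus Nissle. Leaving out 1 sample, also added, rank differences in CEC minus Nissle ranged from -0.45 to 1.8 for Cxcl2, -1.35 to 0.45 for Csf3_Mm00438335_g1 and -0.9 to 0.9 for Csf2_Mm00438328_m1. For Csf2_Mm00438328_m1 they ranged from -0.45 to 1.8 in CEC minus healthy, -1.8 to 0.45 in CEC minus DNBS and -1.35 to 0.45 in Nissle minus DNBS. Scaling moved the median difference of all assays by up to 0.433 without normalization (Nissle minus healthy), by -0.169 with reference assays (CEC minus Nissle) by 0.146 with median normalization (CEC minus DNBS) and by 0.106 with quantile normalization (Nissle minus healthy). The medians of the ligands, inducers and neutrophil markers kept their sign under these scalings in the comparisons described. With 5 samples a group, detection that differs in fewer than 4 samples cannot reach an unadjusted p below 0.05.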
